A study of Homo sapiens with 4 samples.

Results

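The genes described here are the 3 RIG-I-like receptors (DDX58, IFIH1 and DHX58), their adaptor MAVS, and the paired helicases DDX60 and DDX60L, measured by RNA-seq in HT-29 cells with or without Myc-TRIM40. HT-29 is an established line from a human colorectal adenocarcinoma and serves as a model of colonic epithelium. The 6 genes were chosen by name. They were all found in the files, as 10 transcripts of the 63714 listed and 6 genes of 27685, and all 6 passed the filter on low counts. The study compared cells expressing a control vector with cells expressing the TRIM40 protein carrying a Myc tag. It had 2 libraries per condition, 1 from each of 2 independent experiments, and the labels give no other treatment for either group. TRIM40 is a member of the tripartite motif family of ubiquitin ligases. The sources used here name neither the promoter of the vector nor whether the cells were a clone or a pool. Reads of TRIM40 were absent from the control libraries (0 in each), while the Myc-TRIM40 libraries held 272646 in experiment 1 and 110665 in experiment 2.

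RIG-I-like receptors are helicases of the cytoplasm that recognise viral double-stranded RNA. DDX58 encodes RIG-I, which binds RNA ends carrying a triphosphate, and IFIH1 encodes MDA5, which forms filaments on long duplexes. Both carry caspase recruitment domains, through which they engage MAVS on mitochondria. MAVS then passes the signal to the kinases and transcription factors that switch on type I and type III interferon genes. DHX58 encodes LGP2, which lacks those domains and modulates the others. DDX60 and DDX60L encode Ski2-like helicases that have been linked to antiviral defence. Interferon in turn raises the RNA of many such genes through elements in their promoters, which makes the receptors themselves interferon-stimulated genes in many epithelial cells. TRIM40 has been described as acting on RIG-I and MDA5 at the protein level, and protein was not measured in these files.

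The files place DDX58 (Entrez gene 23586) at chr9:32455300-32526322 of hg19, IFIH1 (64135) at chr2:163123589-163175218 and DHX58 (79132) at chr17:40253422-40264751. MAVS (57506) lies at chr20:3827446-3856770. DDX60 (55601) at chr4:169137442-169239958 and DDX60L (91351) at chr4:169277886-169401665 are neighbours, 37927 bases apart. Each span is the whole gene with its exons and introns, and 0 of the 6 overlap another gene in the files. The closest neighbour of any of them was GCA, which lies 54 bases from IFIH1. Its level was 6.08 FPKM in the control and 6.27 with Myc-TRIM40 in experiment 1, and 12.10 and 10.28 in experiment 2. FPKM is the number of read fragments per kilobase of transcript, scaled to the depth of the library, so it can be compared between genes.

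The promoters of these genes are shown because 5 of the 6 differed between the conditions in the same direction, and because the interferon-stimulated response element (ISRE) is the best known element of such genes. Windows from 250 bases before to 50 bases after the annotated start were taken from RefSeq (GRCh38.p14) for 5 of the 6 genes. DHX58 is not shown. The windows are chr9:32526147-32526446 for DDX58 (minus strand), chr2:162318635-162318934 for IFIH1 (minus), chr4:168318703-168319002 for DDX60 (minus), chr4:168480443-168480742 for DDX60L (minus) and chr20:3846584-3846883 for MAVS (plus). Each sequence reads 5′ to 3′ on the strand of its gene, and capitals mark every pair of GAAA, or TTTC on the other strand, that is spaced by 1 or 2 bases.
DDX58: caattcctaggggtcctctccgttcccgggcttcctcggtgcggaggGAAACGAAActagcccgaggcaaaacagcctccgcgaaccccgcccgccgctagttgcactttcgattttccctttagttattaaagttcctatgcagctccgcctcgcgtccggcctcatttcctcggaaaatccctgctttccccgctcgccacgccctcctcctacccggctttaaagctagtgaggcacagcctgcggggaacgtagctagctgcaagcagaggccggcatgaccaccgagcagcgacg
IFIH1: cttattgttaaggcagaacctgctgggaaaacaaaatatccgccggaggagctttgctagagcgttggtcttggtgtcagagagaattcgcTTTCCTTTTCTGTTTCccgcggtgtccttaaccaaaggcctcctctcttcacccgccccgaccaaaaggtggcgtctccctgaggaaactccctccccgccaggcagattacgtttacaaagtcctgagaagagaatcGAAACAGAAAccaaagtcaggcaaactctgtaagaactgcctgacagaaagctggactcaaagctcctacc
DDX60: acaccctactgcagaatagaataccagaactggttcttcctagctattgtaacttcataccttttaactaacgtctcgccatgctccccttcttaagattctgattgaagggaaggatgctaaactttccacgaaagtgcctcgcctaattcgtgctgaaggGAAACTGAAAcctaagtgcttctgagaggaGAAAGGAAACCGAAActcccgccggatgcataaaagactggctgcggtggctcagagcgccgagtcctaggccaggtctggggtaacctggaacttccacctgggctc
DDX60L: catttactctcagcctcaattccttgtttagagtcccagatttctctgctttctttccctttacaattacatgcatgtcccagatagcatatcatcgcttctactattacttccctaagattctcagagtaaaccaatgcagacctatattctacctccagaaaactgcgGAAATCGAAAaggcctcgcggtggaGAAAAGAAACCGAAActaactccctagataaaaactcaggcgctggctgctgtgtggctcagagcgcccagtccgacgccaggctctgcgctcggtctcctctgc
MAVS: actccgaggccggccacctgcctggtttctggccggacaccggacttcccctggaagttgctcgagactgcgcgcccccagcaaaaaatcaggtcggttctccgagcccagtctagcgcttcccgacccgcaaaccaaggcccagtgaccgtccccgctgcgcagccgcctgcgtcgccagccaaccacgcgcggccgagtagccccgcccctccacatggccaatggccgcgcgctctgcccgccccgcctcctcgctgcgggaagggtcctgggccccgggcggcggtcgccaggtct
DDX60 held 2 matches to the ISRE core GAAANNGAAA (other strand TTTCNNTTTC), which began 88 and 53 bases before the start. The window of DDX60L held 2 as well, at 80 and 50 bases, so that the paralogs share the arrangement. IFIH1 held 3, at 21 bases and, overlapping each other on the other strand, at 159 and 153 bases. DDX58 held none, but it had the pair with 1 base between, GAAANGAAA (other strand TTTCNTTTC), at 203 bases. That closer spacing also occurred in DDX60 at 58 bases and in DDX60L at 55 bases, in each case overlapping the nearer ISRE match. MAVS held neither. Among all 35116 RefSeq promoter windows of this length, 3.57% held the ISRE core and 3.12% held the closer spacing. In all, 6.4% held either. A match describes letters in a window and is not evidence that a factor bound there.

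**Figure D1:**
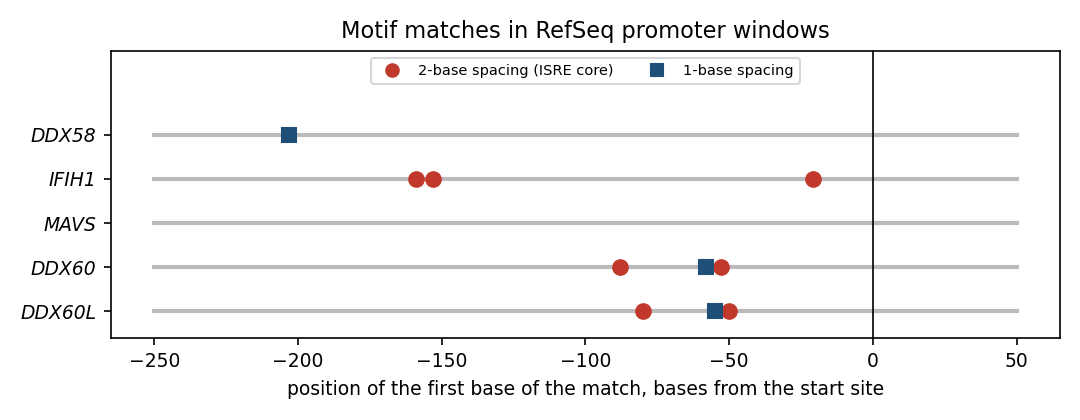
Position of each GAAA pair in the RefSeq promoter windows of 5 genes, in bases from the annotated start site (0), with circles for GAAA pairs 2 bases apart (ISRE core) and squares for pairs 1 base apart. The windows of IFIH1, DDX60 and DDX60L hold 3, 2 and 2 circles, DDX58 holds 1 square, and MAVS holds no match.

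The receptors, DDX60 and DDX60L were higher with Myc-TRIM40 in both experiments, and far more so in experiment 1. MAVS was not. None of the 6 genes passed edgeR's test after Benjamini-Hochberg adjustment, while DESeq2 called 5 of them higher. The number of estimated reads and the FPKM of each gene are given first in the control and Myc-TRIM40 libraries of experiment 1, then in those of experiment 2. Reads were compared between libraries after TMM scaling, and the 95% intervals of those ratios cover counting error only, since 1 library per condition stands behind each.

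DDX58 had 845 reads in the control and 6623 with Myc-TRIM40 in experiment 1, and 759 and 1241 in experiment 2. Its level was 2.84 and 22.21 FPKM in experiment 1, and 2.30 and 4.06 FPKM in experiment 2. Both Myc-TRIM40 libraries thus lay above both control libraries, whose levels were close together. The scaled read ratio was 7.63 (7.1 to 8.21) in experiment 1 and 1.62 (1.48 to 1.78) in experiment 2. Across both experiments the fitted log2 fold change was 1.82 ± 0.48 (SE, n = 2 libraries per condition; edgeR quasi-likelihood test, Benjamini-Hochberg adjusted p = 0.648).

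IFIH1 was the most abundant of the 3 receptors in every library. Its reads numbered 815 and 6031 in experiment 1, then 816 and 1376 in experiment 2. This came to 3.62 and 26.72 FPKM, then 3.27 and 5.95 FPKM. The 2 control libraries were alike, at 0.903 times one another in FPKM, and the groups did not overlap. The read ratio was 7.21 (6.7 to 7.76) in experiment 1 and 1.67 (1.53 to 1.82) in experiment 2, and the fitted log2 fold change was 1.80 ± 0.45 (SE, n = 2; edgeR, Benjamini-Hochberg adjusted p = 0.587).

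DHX58, the receptor without recruitment domains, was the least abundant of the 3 in every library. Its reads numbered 382 and 2135 in experiment 1, then 220 and 396 in experiment 2, or 2.33 and 13.01 FPKM, then 1.21 and 2.35 FPKM. Within each experiment the Myc-TRIM40 library was higher. However, the Myc-TRIM40 library of experiment 2 was at the level of the control library of experiment 1, and in TMM-scaled CPM (reads scaled to the library total) it was just below it, at 6.16 against 6.26. The groups therefore overlapped. Its read ratio was 5.44 (4.88 to 6.08) in experiment 1 and 1.78 (1.51 to 2.11) in experiment 2. The fitted log2 fold change was 1.66 ± 0.37 (SE, n = 2; edgeR, Benjamini-Hochberg adjusted p = 0.444).

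DDX60 had the largest difference of the 6 in both experiments. Its reads were 554 and 5893 in experiment 1 and 334 and 855 in experiment 2. Its level was 1.46 and 15.47 FPKM, then 0.79 and 2.19 FPKM, so that both Myc-TRIM40 libraries were above both controls although the controls differed from each other. The read ratio was 10.4 (9.49 to 11.3) in experiment 1 and 2.54 (2.23 to 2.89) in experiment 2. The fitted log2 fold change was 2.37 ± 0.44 (SE, n = 2; edgeR, Benjamini-Hochberg adjusted p = 0.255), and by p-value DDX60 ranked 34th of 14868 genes.

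DDX60L was the lowest of the 6 in 3 of the 4 libraries. It had 386 and 3168 reads in experiment 1 and 434 and 768 in experiment 2, or 0.91 and 7.56 FPKM, then 0.92 and 1.76 FPKM. Its control libraries were nearly equal and the groups did not overlap. The read ratio was 7.99 (7.19 to 8.91) in experiment 1 and 1.75 (1.56 to 1.98) in experiment 2, with a fitted log2 fold change of 1.91 ± 0.47 (SE, n = 2; edgeR, Benjamini-Hochberg adjusted p = 0.556). DDX60 and DDX60L are paralogs, and reads that match both can be given to either. Of the 25-base windows of the DDX60L transcript, 126 of 6757 (1.86%) also occur in the DDX60 transcript, and of the 100-base windows 0 of 6682. Summed into 1 feature, the pair had a log2 fold change of 2.15 (edgeR with Benjamini-Hochberg adjustment, adjusted p = 0.398).

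MAVS, the adaptor, behaved unlike the other 5 in experiment 1. In experiment 2 its ratio of FPKM + 1 was 1.58, within the range of 1.44 to 1.78 of the other 5. MAVS had 11586 reads in the control and 10913 with Myc-TRIM40 in experiment 1, and 5338 and 8261 in experiment 2. Its level was 15.77 and 14.82 FPKM in experiment 1 and 6.54 and 10.95 FPKM in experiment 2. The lowest and the highest of the 4 were both control libraries. The read ratio was 0.917 (0.893 to 0.942) in experiment 1 and 1.53 (1.48 to 1.59) in experiment 2, on opposite sides of 1. The fitted log2 fold change of 0.25 ± 0.25 (SE, n = 2; edgeR, Benjamini-Hochberg adjusted p = 0.895) was no larger than its error.

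**Figure D2:**
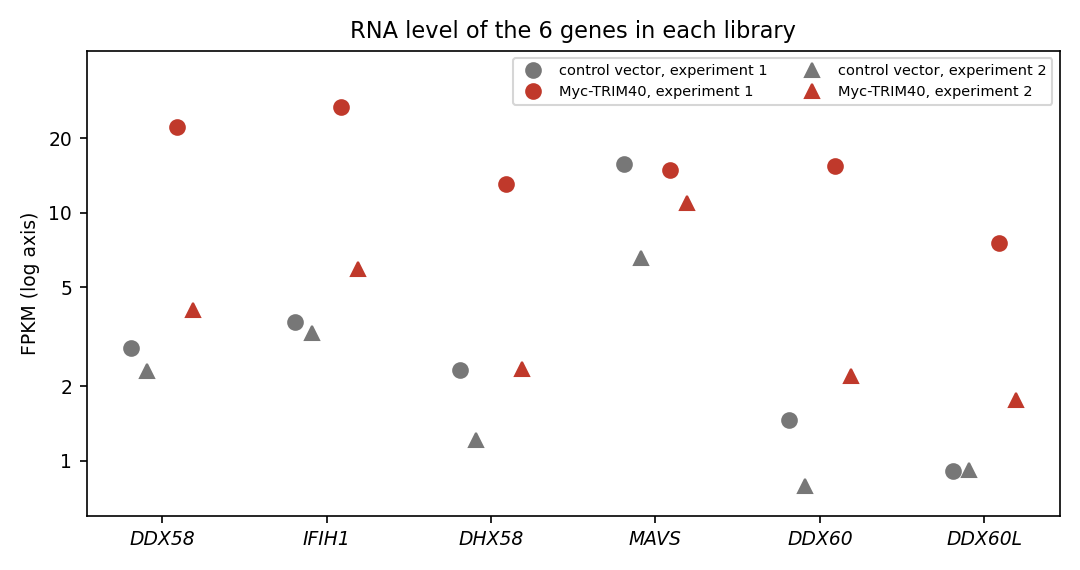
FPKM of the 6 genes in each of the 4 libraries on a log axis, with gray for control vector, red for Myc-TRIM40, circles for experiment 1 and triangles for experiment 2. The red circles of 5 genes stand between 7.56 and 26.72, well above their other points, while the gray and red circles of MAVS (15.77 and 14.82) nearly coincide.

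**Figure D3:**
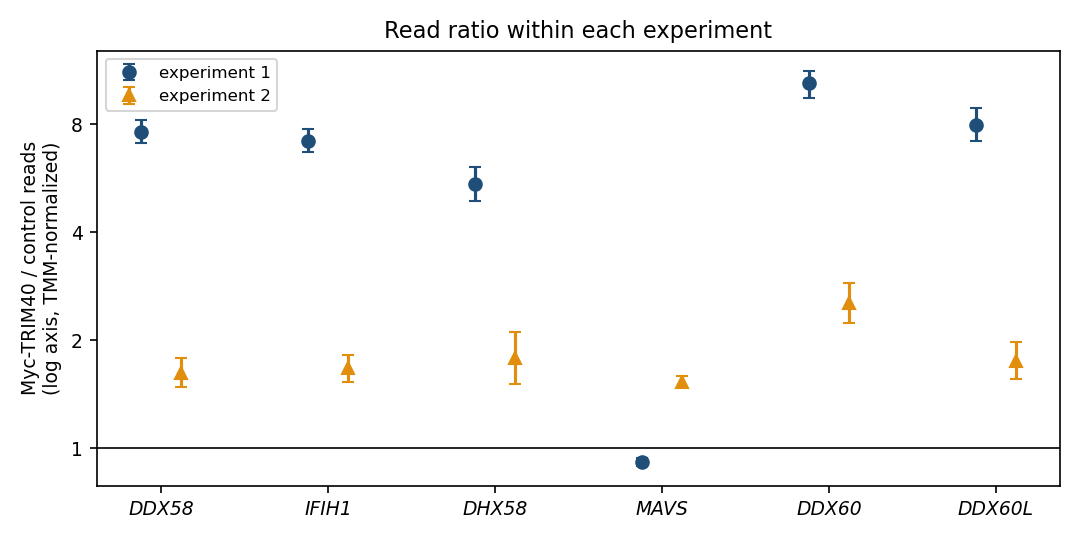
Ratio of TMM-scaled reads, Myc-TRIM40 over control vector, for each gene on a log axis, with circles for experiment 1, triangles for experiment 2 and bars for the 95% counting interval. For 5 genes the circles lie between 5.44 and 10.4 and the triangles between 1.62 and 2.54, and MAVS alone has its circle below 1.

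Read against all 14868 genes tested, the receptors and the DDX60 pair stood high in experiment 1 and less so in experiment 2. Their log2 ratios of FPKM + 1 were at percentiles 99.7 to 99.9 of all genes in experiment 1 and 89.2 to 97.1 in experiment 2. That of MAVS was at percentile 22.9 in experiment 1 and 94.0 in experiment 2, where it was within the range of the other 5. The median fitted log2 fold change of the 6 was 1.81, against 0.04 over all genes tested. By experiment the medians of their log2 ratios were 2.38 and 0.64, against 0.03 and 0.08 over all genes. The log2 read ratio of these 5 genes was larger in experiment 1 by between 1.61 (DHX58) and 2.24 (DDX58). Their counting intervals did not overlap between the experiments, and neither did those of MAVS. The share of all genes for which this holds was not computed. With 1 library per condition in each experiment, the difference between the experiments could not be tested. TRIM40 itself was at 2086 FPKM with Myc-TRIM40 in experiment 1 and 827.2 FPKM in experiment 2, and its part in the difference was not tested.

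Of the 6 genes, 0 passed edgeR's test at an adjusted p under 0.05 in either direction, where 0.0404% of all genes were called higher. At an unadjusted p under 0.05, 5 were higher and 0 lower, against 3.41% of all genes for higher. DESeq2 called the same 5 higher, where it called 0.303% of all genes so, with Benjamini-Hochberg adjusted p = 1.9e-06 for DDX60, 0.00245 for DDX60L, 0.00247 for IFIH1, 0.00314 for DDX58 and 0.00835 for DHX58. For MAVS its log2 fold change was 0.22 (DESeq2 adjusted p = 1). The 2 tools thus differ on whether these 5 genes passed. With 2 libraries in each condition the smallest two-sided p of an exact permutation test is 0.333 if the pairing by experiment is ignored. Keeping the pairing allows no smaller value, so single values were not tested in that way. The experiments are described as independent. Each gene had 1 residual degree of freedom in edgeR, moderated across genes by a median prior of 7.44, and DESeq2 also shares information on spread between genes. The p-values therefore do not show how closely the 2 experiments matched at a single gene.

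By the fold change of FPKM + 1 that the study used, 5 of the 6 were at least 1.5-fold higher in experiment 1 (2.78% of all genes tested) and 5 in experiment 2 (8.54%). DDX58, IFIH1, DHX58 and DDX60 passed in both (0.457%). DDX60L reached 4.49-fold in experiment 1 and 1.44-fold in experiment 2, just under the threshold, which it passed in both with a pseudocount of 0.1 in place of 1. MAVS passed only in experiment 2, at 1.58-fold against 0.943 in experiment 1. In scaled counts, 4 of the 6 had both Myc-TRIM40 libraries above both controls, which held for 11.0% of all genes. IFIH1 and DDX60 are on a list that the study drew from these same libraries, so their direction is not independent of it. With each experiment centred on its median gene, the number past 1.5-fold in both was 2, IFIH1 and DDX60. The share of all genes that passed after centring is not given.

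The control libraries differed from each other at some of these genes. MAVS was at 0.415 times its experiment 1 level in the control of experiment 2, and DHX58 at 0.518 times. These 2 genes were lower there by at least 1.5-fold in FPKM + 1, as were 16.1% of all genes tested. DDX60 was at 0.543 times and DDX58 at 0.81 times. IFIH1 and DDX60L stayed near their level, at 0.903 and 1.01 times. For MAVS the difference between the control libraries exceeded that between the conditions in either experiment. The FPKM were deposited in a separate table for each experiment.

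The order of the 6 genes changed with Myc-TRIM40 in experiment 1. In both control libraries MAVS was highest, followed by IFIH1, DDX58 and DHX58, with DDX60 and DDX60L lowest. Of the neighbours in that order, the control ranges of DDX58 and DHX58 overlapped, as did those of DHX58 and DDX60 and of DDX60 and DDX60L. In the Myc-TRIM40 library of experiment 1, IFIH1, DDX58 and DDX60 all stood above MAVS. In the Myc-TRIM40 library of experiment 2 the first 4 genes stood in the same order as in the controls, while DDX60 was above DDX60L, the reverse of the control library of that experiment. Summed over the 3 receptors, the level was 8.79 and 61.93 FPKM in experiment 1, and 6.77 and 12.37 FPKM in experiment 2. Per unit of MAVS RNA this was 0.557 and 4.18, then 1.03 and 1.13, so that receptor RNA exceeded adaptor RNA several-fold in 1 library only.

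The proportions among the receptors varied much less than their levels. DDX58 made up between 32.3% and 35.9% of the receptor FPKM over the 4 libraries, and IFIH1 between 41.2% and 48.2%. DHX58 ranged from 17.8% to 26.5%, highest in the control library of experiment 1. IFIH1 exceeded DDX58 by 1.27 and 1.2 times in experiment 1 and by 1.42 and 1.47 times in experiment 2. The ratio of DDX60 to DDX60L was higher with Myc-TRIM40 in both experiments, at 1.61 and 2.05, then 0.861 and 1.24. These ratios are descriptions of single libraries and were not tested.

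DDX60L and MAVS are each listed with 3 transcripts. For DDX60L the reads were split between variants 1 and 3, whose lengths of 6781 and 6784 bases are almost equal. Variant 3 held 3.4% of the gene's reads in the control and 49.8% with Myc-TRIM40 in experiment 1, and 97.5% and 46.0% in experiment 2. The control libraries thus gave nearly all reads to different variants, and neither variant alone can be compared between the conditions. Variant 2 of 4595 bases had 103 reads with Myc-TRIM40 in experiment 1 and 0 in the other 3 libraries. MAVS was mostly variant 1, which held 84.8% and 85.3% of its reads in experiment 1 and 92.0% and 86.9% in experiment 2. Variant 2, listed as non-coding, held 6.1% and 9.2%, then 0.0% and 5.7%. The remaining 4 genes have 1 transcript each.

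**Figure D4:**
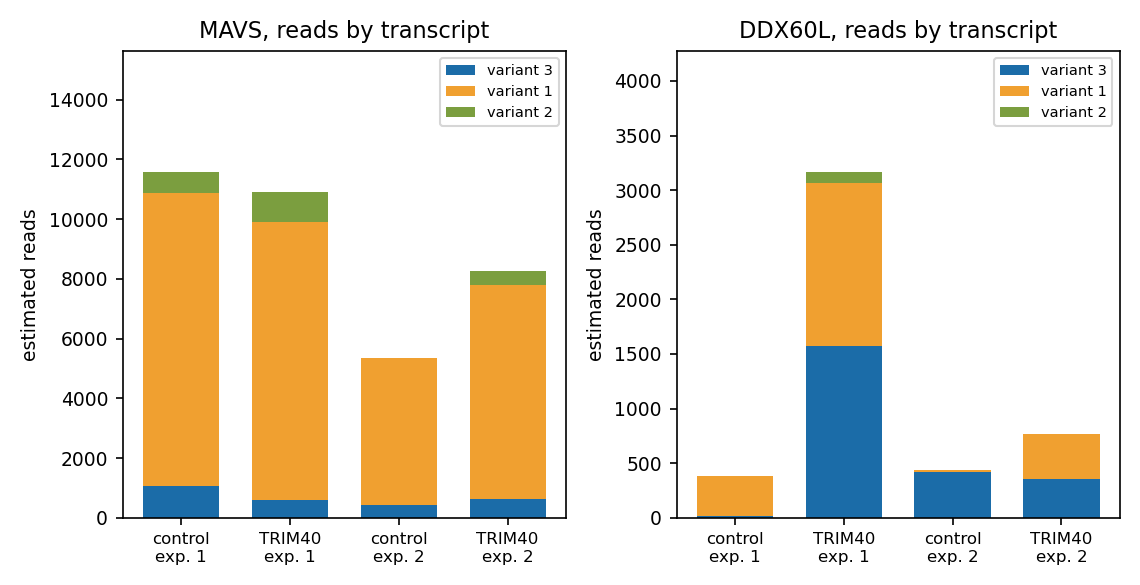
Estimated reads of each transcript variant of MAVS and DDX60L, stacked, in the 4 libraries. Variant 1 makes up most of every MAVS bar, whereas the DDX60L reads are on variant 1 in the control of experiment 1, on variant 3 in the control of experiment 2, and on both with Myc-TRIM40.

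Genes whose levels ran most like these were sought among 11795 genes with a mean of at least 1 FPKM. Likeness was the root mean square difference of log2(FPKM + 1), centred on each gene's mean, over the 4 libraries. DDX58 and IFIH1 were closest to each other among the 6, at 0.082, and MAVS lay 0.798 to 1.051 from the rest. The nearest gene to DDX60 was IFIT3, an interferon-induced RNA-binding protein, at 0.055, with 5.43 and 38.61 FPKM in experiment 1 and 3.56 and 6.61 FPKM in experiment 2. MIR4444-2 (0.165) and CMPK2 (0.171) followed. USP18, which removes the ubiquitin-like protein ISG15 from its targets, was nearest to IFIH1 at 0.098, before HSH2D (0.110) and EPSTI1 (0.118). DDX60L was nearest to IRF7 (0.078), the complement gene CFB (0.091) and HSH2D (0.093). DDX58 was followed most closely by MIR4444-2 (0.113), EPSTI1 (0.118) and IFIT3 (0.123), and DHX58 by EGR1 (0.122), IFIT2 (0.144) and USP18 (0.176). MIR4444-2 is a model of 73 bases that overlaps HNRNPA3 and MIR4444-1, so its reads are uncertain. Such likeness describes 4 libraries only, and nothing was tested on it.

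The other genes of the pathway were examined in 5 lists of 76 genes in all, of which 71 passed the filter. Neither edgeR nor DESeq2 called any of the 71 higher or lower after Benjamini-Hochberg adjustment, and at an unadjusted p under 0.05 in edgeR 4 were higher and 0 lower, where 3.41% of all genes were higher. Among 18 regulators of the receptors, the median log2 fold change was 0.01 and the range -0.28 to 0.70. TRIM25, a ubiquitin ligase that activates RIG-I, was the only gene of these lists past 1.5-fold in both experiments. It was at 26.88 and 50.48 FPKM in experiment 1 and 16.70 and 26.20 FPKM in experiment 2, with a log2 fold change of 0.70 ± 0.22 (SE, n = 2; edgeR, Benjamini-Hochberg adjusted p = 0.888). The most abundant regulators, YWHAE, PPP1CA and PPP1CC, had log2 fold changes of -0.21, -0.28 and -0.19, each within 2 times its standard error.

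Genes acting with or after MAVS lay near the median of all genes. The median log2 fold change was 0.09 over 16 partners of MAVS, whose most abundant members PSMA7, PCBP1 and C1QBP had values of -0.35, -0.10 and -0.27. It was 0.08 over 21 genes of downstream signalling, among them the transcription factors IRF3 (-0.26) and RELA (0.12) and the kinase adaptor TANK (0.08). IRF7, an interferon regulatory factor that is itself interferon-inducible, was at 16.51 and 80.76 FPKM in experiment 1 and 16.52 and 21.77 FPKM in experiment 2 (log2 fold change 1.26 ± 0.42, SE, n = 2; edgeR, Benjamini-Hochberg adjusted p = 0.888). The deubiquitinase CYLD (log2 fold change 0.59) and RNF5, a ligase that targets MAVS (2.12), completed the 4. RNF5 had only 5 and 23 reads in experiment 1 and 5 and 22 in experiment 2, and it has a near-identical pseudogene. IRF7, CYLD and RNF5 are named here because their values were seen to pass the unadjusted threshold. Among 14 related helicases tested the median was 0.13, and the RNA helicases DDX21 and DHX9 had values of 0.19 and 0.07. SNRNP200, a Ski2-like helicase of the spliceosome, had 120.48 and 115.78 FPKM in experiment 1 and 37.78 and 77.59 FPKM in experiment 2 (log2 fold change 0.41), with its lowest level, like that of MAVS, in the control of experiment 2.

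The interferon and chemokine genes listed as outputs of this pathway had most of their reads in 1 library. Whether the receptors acted on them in these cells was not tested. IFNB1, encoding interferon beta, had 32 reads with Myc-TRIM40 in experiment 1 and 0 in the other 3 libraries. Against a floor of 3 reads per library it was at least 10.4-fold higher in experiment 1. The type III interferon gene IFNL1 had 8 and 176 reads in experiment 1, a ratio of 21.4 (10.6 to 50.4), but 5 in each library of experiment 2. IFNL2 had 0 and 65 reads in experiment 1 (at least 21.1-fold higher) and 0 in both libraries of experiment 2. IFNL3 had 0 and 53 reads in experiment 1 and 5 and 0 in experiment 2, and it is so alike IFNL2 that the division between them is uncertain. The chemokine genes CXCL10 and CCL5 had ratios of 13.1 (8.68 to 20.8) and 10.3 (6.85 to 16) in experiment 1. In experiment 2 these were 0.92 (0.58 to 1.46) and 0.811 (0.469 to 1.39). IFNB1, IFNL1, IFNL2 and IFNL3 did not pass the filter on low counts and were therefore not tested. Neither chemokine gene passed edgeR's test (n = 2; Benjamini-Hochberg adjusted p = 0.888 for both). In experiment 2 CXCL10 had 42 and 39 reads and CCL5 had 33 and 27, so their intervals are wide. They are therefore not set against the narrower intervals of the 6 genes.

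**Figure D5:**
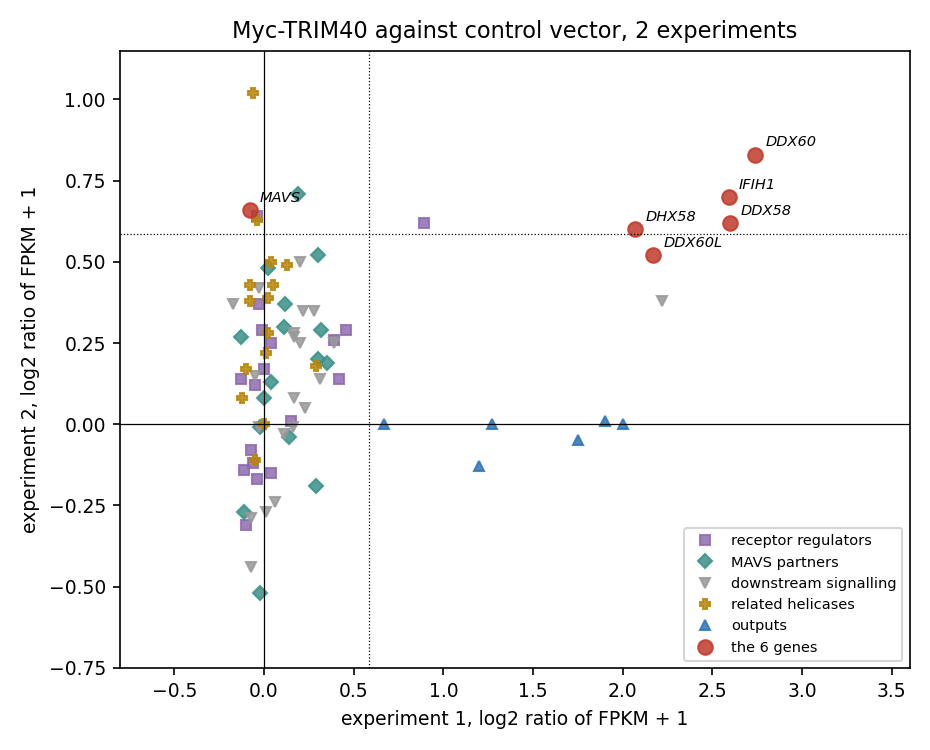
Log2 ratio of FPKM + 1, Myc-TRIM40 over control vector, in experiment 1 (horizontal) and experiment 2 (vertical) for the 6 genes (red circles) and the 5 lists of pathway genes, with dotted lines at 1.5-fold. The receptors and the DDX60 pair stand at the upper right, the output genes lie along 0 in experiment 2, and MAVS is among the other pathway genes.

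The estimated reads summed to between 60954602 and 67424698 per library. All 7 epithelial markers were detected, with the summed level of EPCAM, CDH1, KRT8, KRT18, KRT20, VIL1 and CDX2 between 6363 and 8960 FPKM, although CDX2 was only at 1.22 to 1.39 FPKM. The blood markers PTPRC, CD3E and CD14 summed to between 1.45 and 2.61 FPKM, nearly all of it CD14, with CD3E at 0. The 4 markers of fibroblasts and endothelium summed to between 0.38 and 1.09 FPKM, with COL3A1 at 0. In such bulk RNA, more cells expressing a receptor and more receptor RNA per cell cannot be told apart.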

How the data were processed

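RNA was measured in 4 libraries of HT-29 cells, made with a TruSeq Stranded mRNA kit. Microarrays and tissue samples were not analysed here, and some results that the lists cover are not reported here. The submitters' processing notes name hg19, HISAT2 2.1.0 and StringTie 1.3.4d. For each RefSeq transcript the authors deposited the FPKM and an estimated count of reads, given in whole numbers and not normalized. Per the file headers, the authors also deposited TPM for experiment 2, and for experiment 1 TPM was computed from FPKM. Transcript lengths, another deposited value, were used as given. Whether reads were counted by strand is not given in the sources used here.

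Transcripts were summed by Entrez gene. The main test was edgeR 4.0.16 (glmQLFit and glmQLFTest, R 4.3.3) on the 14868 genes kept by filterByExpr, with TMM factors, the experiment number as a block and Benjamini-Hochberg adjustment over all genes. Standard errors came from the log2 fold change and F. Residual degrees of freedom were 1 per gene, moderated by a median prior of 7.44, at a common dispersion of 0.0484. The block rests on the replicate numbers of the labels and on the files, which each hold 1 control and 1 Myc-TRIM40 library. Libraries of the same number deviated together from their condition means (r = 0.45 across 14868 genes, which are not independent). Ratios of FPKM + 1 within an experiment were called at 1.5-fold. Read ratios carry exact 95% intervals for counting error, which understate the error of estimated reads. The estimated reads assigned to transcripts summed to 60954602 to 67424698 per library, and the number of experiments limits the precision.

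Alternatives were no block, DESeq2 1.42.0, limma 3.58.1 on log2(FPKM + 1), upper-quartile and median-centred scaling, no filter, each library or experiment left out, DDX60 and DDX60L summed, and, for ratios, another pseudocount, an FPKM minimum, TPM, a threshold of 2 and 1 transcript per gene. The scripts were tested on simulated data. Named genes were the 6 members, TRIM40, pathway genes called or past 1.5-fold in both experiments, the 3 most abundant of each list, the outputs, and the 3 genes nearest to each member except MAVS. The members, lists and tests were chosen with earlier results of these data known, and DDX58, IFIH1, DDX60 and DDX60L are also on a list the study drew from microarrays of such cells. Promoter sequences are from RefSeq (GRCh38.p14), and shared windows were counted in GENCODE transcripts. Other steps used scipy 1.17.1, numpy 2.4.6, matplotlib 3.10.9 and pandas 2.3.3 under Python 3.11.15.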

Additional observations from a re-analysis of the deposited data

How the results depend on the processing

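DDX58, IFIH1, DHX58, DDX60 and DDX60L were higher with Myc-TRIM40 under every alternative run, but whether they passed the adjusted threshold depended on the tool and on 1 library. DESeq2 called 5 of the 6 genes higher, with log2 fold changes of 1.79 for DDX58, 1.77 for IFIH1, 1.62 for DHX58, 2.34 for DDX60 and 1.88 for DDX60L (DESeq2 adjusted p from 1.9e-06 to 0.00835), where edgeR called 0. Under the other 6 settings that kept all 4 libraries, run with edgeR or limma, adjusted p was between 0.398 and 1 for these 5. The fit without the replicate block, that is without the pairing by experiment, gave log2 fold changes of 2.28 for DDX58, 2.17 for IFIH1, 2.05 for DHX58, 0.15 for MAVS, 2.91 for DDX60 and 2.25 for DDX60L. That fit called 0 genes of all tested. At an unadjusted p under 0.05 in it, 5 members were higher, against 128 of all 14868 genes tested. The block changed no call for the 6 genes.

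With each library left out in turn and no replicate block, where the lone library is assumed to vary like the others, the count of members called higher ranged from 0 to 5. It was 5 without Myc-TRIM40 replicate 2, and the count of pathway genes called, 0 to 3, was 3 in the same fit, namely CXCL10 (log2 fold change 3.29), IRF7 (2.21) and CCL5 (3.21). The log2 fold changes ranged from 0.58 to 3.04 for DDX58, 0.71 to 2.88 for IFIH1, 0.34 to 2.81 for DHX58, 0.89 to 3.71 for DDX60 and 0.86 to 2.94 for DDX60L. MAVS ranged from -0.31 to 0.82 and changed sign without Myc-TRIM40 replicate 1 (-0.09) and without control replicate 2 (-0.31). From 1 experiment alone its value was -0.12 or 0.62. The count of members past 1.5-fold in both experiments, 4, became 2 with median-centred ratios and 0 at a threshold of 2-fold, and it was 5 with a pseudocount of 0.1 or with TPM. In the main setting 0.457% of all genes tested passed in both. The shares of all genes under the other settings are not given, so these counts cannot be read against them. Over all genes, edgeR's 6 higher and 3 lower calls became 45 and 9 with DESeq2, 3 and 0 with limma, 0 and 0 without the filter, and 88 and 18 without Myc-TRIM40 replicate 2. The 6 genes had at least 220 reads in each library, and the interferon genes had between 0 and 8 reads in the control libraries, so that counting error is larger for the latter. The cause of these changes was not tested.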
